A study of Homo sapiens with 24 samples.

Results

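The serum- and glucocorticoid-regulated kinases SGK1, SGK2 and SGK3, the ubiquitin ligase NEDD4L and the epithelial sodium channel subunits SCNN1A, SCNN1B and SCNN1G were examined as 1 signalling axis in SK-MES-1 cells, an established human lung squamous carcinoma line. The 7 genes were chosen by the levels of SGK1, whose mRNA rose strongly with TGFβ in these same libraries, so the differences of SGK1 between the arms are given as a description, without a test. The other genes were taken for their known link to SGK1, and 5 of the 7 had enough reads to be tested among 17453 genes. SCNN1B and SCNN1G did not pass the filter on low counts.

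SGK1 is a kinase of the AGC family that resembles AKT. Its transcript has a short life and responds within hours to serum, corticosteroids and growth factors, and the kinase itself is switched on by PDPK1 and by the mTORC2 complex downstream of phosphoinositide 3-kinase. In epithelia that absorb sodium, among them the airway lining, SGK1 phosphorylates NEDD4L, 14-3-3 proteins then hold the ligase, and the sodium channel stays longer at the cell surface. The channel, ENaC, is built of an alpha subunit (SCNN1A), a beta subunit (SCNN1B) and a gamma subunit (SCNN1G), and proteases such as furin cut it into its active form. NEDD4L also ubiquitylates receptors and Smad proteins of the TGFβ pathway. All of this concerns proteins, whereas the libraries measured mRNA.

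Every library came from the same parental line without any genetic change. The cells were kept without growth factors for 3 h and then given 2 ng/ml TGFβ1 or no stimulus, and both arms were sampled in triplicate (n = 3) after 0, 8, 24 and 48 h, so the 24 libraries form 8 groups. According to the study's methods, the stimulation with TGFβ1 also took place in medium depleted of growth factors. A library held 46613589 to 77964234 estimated counts (median 54120879). Of the epithelial markers, KRT8, KRT18, KRT19 and EPCAM were at 21.6 TPM or more in every library (TPM, a level scaled to a fixed total per library and corrected for transcript length), and CDH1 lay between 0.969 and 5.74 TPM. The squamous keratins KRT5, KRT14 and KRT6A and the desmosomal gene DSG3 stayed at or below 0.102 TPM. TP63 lay between 7.69 and 37.5 TPM and SOX2 between 0.372 and 8.17 TPM. The summed fibroblast markers reached 200 to 311 TPM in untreated libraries and 190 to 2400 TPM in the TGFβ arm. Of these COL1A1 made up most (152 to 2360 TPM), while COL1A2 stayed at or below 0.221 TPM. COL3A1 (2.31 to 9.34 TPM), PDGFRB (1.9 to 21.5) and LUM (3.03 to 24.1) were above 1 TPM in every library, and DCN lay between 0.332 and 13.4 TPM. The part of the fibroblast markers in the results was not tested. The names of the deposited tables carry 4 codes, which separate the arms and, inside an arm, the early times (0 and 8 h) from the late ones (24 and 48 h). Code and arm therefore cannot be told apart at any time point. The changes from 0 to 8 h and from 24 to 48 h stay within a code, both in untreated cells and as changes of the arm difference.

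Most SGK1 mRNA was assigned to transcripts that begin at 1 of the annotated starts. SGK1 lies on the minus strand of chromosome 6 (chr6:134169248-134318112, GRCh38), and 30 of its transcripts were quantified. The 250 bases before the start that carried most reads (at 134174866, the downstream start) and before the start farthest upstream (at 134318112, 143246 bases away) are shown because the data bear on which of them was used, and a window of NEDD4L follows because 1 of its transcripts carried most of that gene's difference. They are reference sequences of RefSeq in GRCh38, written 5′ to 3′ along the gene, and no promoter entry was matched for SGK2, SGK3, SCNN1A or SCNN1G. Capitals mark the letters GGGCGG, the GC box, on either strand in SGK1. In NEDD4L they mark TGANTCA, where N is any base, a looser form of the AP-1 core, which has G or C there.
SGK1 downstream start, chr6:134174867-134175116, minus strand: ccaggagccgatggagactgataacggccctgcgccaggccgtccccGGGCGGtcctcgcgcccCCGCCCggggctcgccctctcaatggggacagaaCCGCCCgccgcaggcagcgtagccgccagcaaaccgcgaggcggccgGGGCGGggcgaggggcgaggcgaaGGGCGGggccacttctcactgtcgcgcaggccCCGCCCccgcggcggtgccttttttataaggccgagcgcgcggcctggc
SGK1 upstream start, chr6:134318113-134318362, minus strand: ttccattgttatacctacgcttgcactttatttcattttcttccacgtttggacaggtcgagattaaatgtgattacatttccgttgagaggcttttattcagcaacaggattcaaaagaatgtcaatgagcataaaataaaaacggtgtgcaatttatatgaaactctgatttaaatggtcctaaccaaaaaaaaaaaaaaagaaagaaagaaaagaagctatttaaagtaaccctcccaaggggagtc
NEDD4L up to the first base of transcript NEDD4L-206, chr18:58221321-58221535, plus strand: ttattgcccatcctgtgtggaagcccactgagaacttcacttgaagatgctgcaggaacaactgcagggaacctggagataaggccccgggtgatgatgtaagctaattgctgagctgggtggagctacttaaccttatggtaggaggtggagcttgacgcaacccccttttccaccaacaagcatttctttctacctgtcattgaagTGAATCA

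The windows of SGK1 differed in composition. The one at the downstream start had a GC content of 76.0% and 6 matches to GGGCGG, which is found in 42.6% of the 35116 windows of the same length in the reference table. The window at the upstream start had a GC content of 33.6% and no match. The letters CAGAC, which Smad proteins can bind, were present in 38.0% of all windows and in neither of these, and TGANTCA, present in 6.6% of all windows, was also in neither. The NEDD4L window held 1 match to TGANTCA at its end, 42 bases before the start that RefSeq gives. It reads TGAATCA, so it is not the AP-1 core itself. RefSeq gives 5 starts for NEDD4L, and the windows of the others, not printed, held no match to TGANTCA. The window before the start at 58047226 held 1 match to CAGAC. No match says only that the letters are not in the window.

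SGK1 mRNA was much higher in TGFβ-treated cells from 8 h on. In untreated cells SGK1 was at 9.45, 9.09 and 9.39 TPM at 0 h, 10.3, 8.94 and 8.51 at 8 h, 12.8, 13.4 and 12.4 at 24 h, and 22.01, 24.0 and 22.6 at 48 h. In the TGFβ arm it was at 8.49, 10.01 and 9.89 TPM at 0 h, 57.5, 51.4 and 56.8 at 8 h, 74.0, 79.3 and 76.5 at 24 h, and 83.4, 75.7 and 85.6 at 48 h. The arms overlapped at 0 h, and from 8 h on the lowest treated library lay above the highest untreated one at each time, which was so for 16.2% of all tested genes at 8 h, 17.2% at 24 h and 24.4% at 48 h. Ordered by mean level, the 3 lowest groups (untreated at 8 h, untreated at 0 h and the TGFβ arm at 0 h) overlapped, the treated groups at 24 and 48 h overlapped with each other, and all other neighbours were separate. In bulk RNA of this kind, more RNA per cell and more cells that express a gene cannot be told apart.

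The log2 difference of SGK1 between the arms in limma voom was 0.13 (SE 0.06) at 0 h, 2.65 (SE 0.051) at 8 h, 2.68 (SE 0.051) at 24 h and 1.93 (SE 0.047) at 48 h. These correspond to 6.29-fold at 8 h, 6.39-fold at 24 h and 3.8-fold at 48 h. The difference was smaller by 0.75 on the log2 scale at 48 h than at 24 h (95% CI -0.89 to -0.61), and over the same interval the mean of the treated libraries changed from 76.6 to 81.6 TPM while that of the untreated libraries changed from 12.9 to 22.8 TPM. Over the 37 settings of the analysis the difference lay between 2.46 and 2.74 at 8 h, 2.48 and 3.03 at 24 h, and 1.79 and 2.28 at 48 h.

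The level of SGK1 also changed in untreated cells. These libraries are 1 side of the differences by which the genes were chosen, so the values are again a description. From 24 to 48 h untreated SGK1 was 1.84-fold higher (log2 0.88, SE 0.053, 95% CI 0.77 to 0.99), in a comparison in which 28.4% of all tested genes passed an adjusted p of 0.01 and 14.7% passed upward. From 0 to 8 h its log2 difference was 0.02 (95% CI -0.1 to 0.15), where 25.9% of genes passed in either direction.

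**Figure D1:**
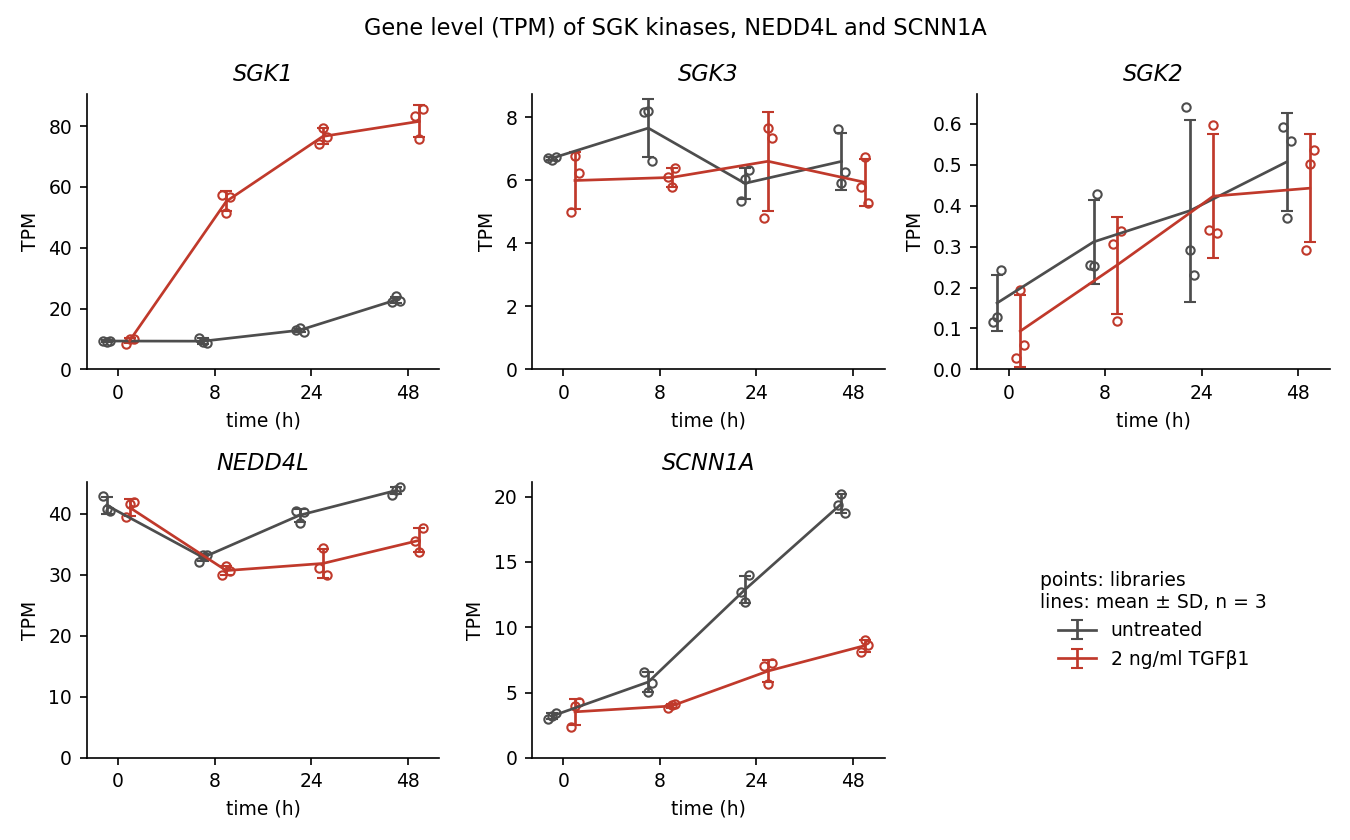
TPM of the 5 genes that passed the filter (vertical axes, linear, from 0) against time in h, with open points for the libraries and lines for the mean ± SD of 3 replicates, grey for untreated and red for TGFβ-treated cells. SGK1 climbed to 81.6 TPM with TGFβ and to 22.8 TPM without, and SCNN1A to 19.4 TPM without TGFβ and 8.59 TPM with it. NEDD4L stayed between 29.9 and 44.4 TPM, while the libraries of SGK2 and SGK3 overlapped at all time points, except SGK3 at 8 h.

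Of the 30 SGK1 transcripts, SGK1-201 and SGK1-228 reached 10% of the gene's TPM in some group. SGK1-201, a coding transcript of 2401 bases from the downstream start, made up 66.9% to 84.5% of the gene's TPM. Untreated cells at 0, 8, 24 and 48 h held 6.22 ± 0.901, 6.93 ± 0.23, 8.63 ± 0.217 and 16.5 ± 0.845 TPM (SD) of it, and the TGFβ arm held 7.43 ± 0.934, 46.6 ± 1.65, 59.4 ± 0.63 and 66.8 ± 0.901 TPM. This 1 transcript thus followed the course of the gene. SGK1-228, a short transcript with a retained intron, reached 15.2% of the gene's TPM in a group but only 2.96% of its estimated counts, and it ranged from 1.63e-08 to 6.68 TPM among the treated replicates at 8 h. The next transcript, SGK1-205, stayed below the limit with at most 8.73% of the TPM, but reached 10.3% of the counts.

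Summed over the 9 transcripts that begin within 100 bases of the downstream start, SGK1 was at 7.53 to 19.4 TPM in the untreated groups and 8.05 to 75.4 TPM in the TGFβ arm, which was 80.8% to 85.8% of the gene's TPM in untreated groups and 92.5% to 94.8% in treated groups from 8 h on. The 2 transcripts from the upstream start were low everywhere. In the order of the time points they summed to 0.219 ± 0.0257, 0.142 ± 0.0421, 0.217 ± 0.067 and 0.507 ± 0.0676 TPM in untreated cells, and to 0.234 ± 0.0663, 0.223 ± 0.0141, 0.255 ± 0.107 and 0.695 ± 0.0514 TPM in the TGFβ arm. Their share of the gene was 2.35% in untreated and 2.5% in TGFβ-arm cells at 0 h, and 1.54% against 0.404% at 8 h. The differences between transcripts were not tested, and kallisto divides reads shared by transcripts by estimation.

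**Figure D2:**
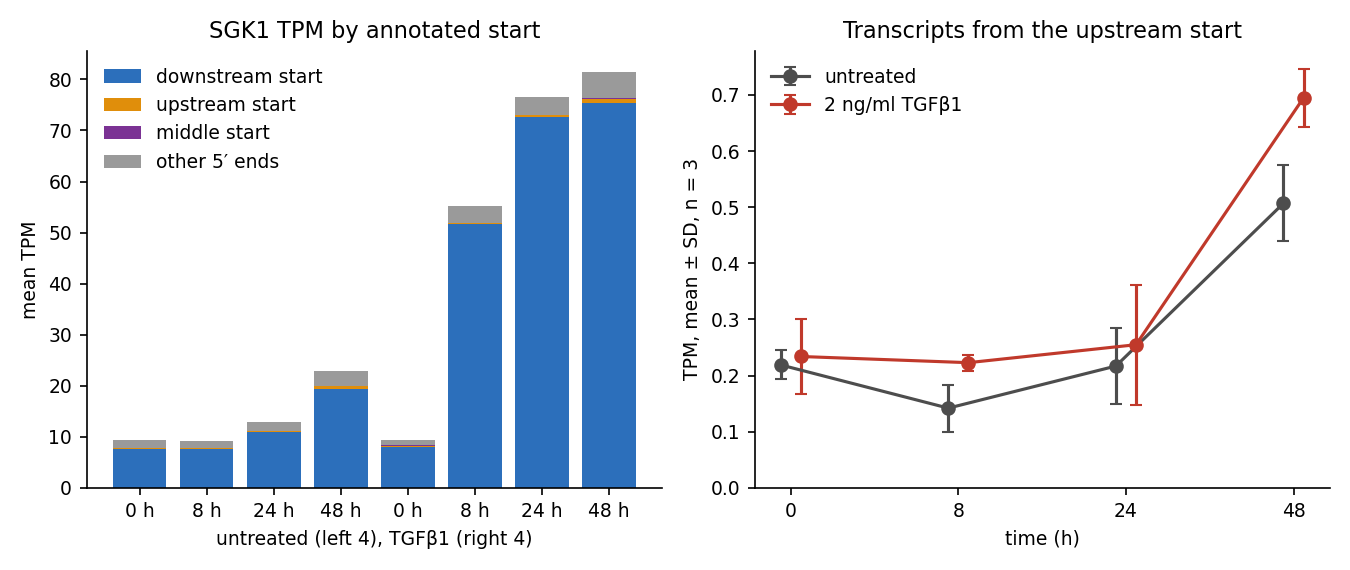
Left, mean TPM of SGK1 in each group as bars from 0, stacked by the annotated start of the transcripts. Right, TPM of the 2 transcripts from the upstream start, mean ± SD of 3 replicates, on an axis that ends below 1 TPM. The downstream start carried 51.6 of 55.2 TPM in TGFβ-treated cells at 8 h, when the upstream start was at 0.223 TPM.

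The other SGK kinases did not pass any test between the arms. SGK3, whose lipid-binding PX domain places it on endosomes, was at 4.81 to 8.2 TPM over the 24 libraries. At 8 h the treated libraries (6.1, 5.79 and 6.39 TPM) lay below the untreated ones (8.17, 8.2 and 6.61), as was the case for 31.2% of all tested genes in TPM, but on counts the log2 difference was -0.16 (SE 0.115, adjusted p by limma voom = 0.36). At 48 h it was -0.29 (95% CI -0.56 to -0.02, adjusted p by limma voom = 0.083), and reads shared with the overlapping readthrough gene C8orf44-SGK3 (0.262 to 1.33 TPM) are divided between both genes by estimation. SGK2, which in the body is found mainly in liver, kidney and pancreas, was at 0.027 to 0.642 TPM and at 2.06 to 36.0 estimated counts. Its log2 difference at 48 h was -0.3 with a 95% CI from -0.92 to 0.31. Its intervals between the arms were the widest of the 5 genes of the axis with enough reads, and a smaller change was not detectable at this depth.

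The make-up of the family shifted with SGK1. As a share of the summed TPM of the 3 kinases, SGK1 came to 57.6% ± 0.476 (SD, n = 3), 53.7% ± 2.02, 67.1% ± 1.51 and 76.3% ± 3.24 in untreated cells at 0, 8, 24 and 48 h. The corresponding shares in the TGFβ arm were 61.0% ± 1.97, 89.7% ± 0.279, 91.6% ± 1.62 and 92.7% ± 1.27. Since the share contains SGK1, it is a description of the same rise.

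Of the 4 genes tested between the arms, NEDD4L and SCNN1A passed at 8, 24 and 48 h, both lower with TGFβ, where 7.26%, 13.8% and 16.4% of all tested genes passed downward, although with 4 reference genes as library size neither call at 8 h held and NEDD4L was not lower at 24 and 48 h. In limma voom 0 genes of the whole table passed at 0 h, and 800 of 17453 had an unadjusted p below 0.05. DESeq2 passed 8 at 0 h.

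NEDD4L was the most abundant of the 7 genes at 0 h and its levels in TPM were modestly lower in TGFβ-treated cells. In untreated cells it was at 43.0, 40.9 and 40.4 TPM at 0 h, 32.1, 33.2 and 33.2 at 8 h, 40.5, 38.5 and 40.4 at 24 h, and 43.2, 43.96 and 44.4 at 48 h. In the TGFβ arm it was at 39.5, 41.6 and 42.0 TPM at 0 h, 30.0, 31.5 and 30.7 at 8 h, 31.2, 34.5 and 29.9 at 24 h, and 35.6, 33.7 and 37.6 at 48 h. Both arms were lower at 8 h than at 0 h. The treated libraries lay below all untreated ones at 8, 24 and 48 h, in TPM. Such a separation downward was found in 31.2%, 23.2% and 30.7% of all tested genes at 8, 24 and 48 h. The fall of untreated cells from 0 to 8 h, a direction in which 12.7% of genes passed, was 0.791-fold (log2 -0.34, SE 0.038, adjusted p by limma voom = 5e-07), and from 24 to 48 h untreated NEDD4L rose by 0.21 on the log2 scale (SE 0.038, adjusted p by limma voom = 0.00017), a call lost on TPM and on length-scaled counts.

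The log2 difference of NEDD4L between the arms was -0.16 (SE 0.038, adjusted p by limma voom = 0.0039) at 8 h, -0.19 (SE 0.038, adjusted p = 0.00034 by limma voom) at 24 h and -0.31 (SE 0.038, adjusted p = 8.9e-07 by limma voom) at 48 h. With library size set by 4 reference genes that the study used for qRT-PCR, which puts the median log2 difference of all genes at 0.335 at 24 h against -0.015 in the main analysis, the log2 difference became 0.16 at 24 h and 0.04 at 48 h, so the direction for NEDD4L depends on the scaling. At 8 h the call was lost without replicate 1 (adjusted p by limma voom = 0.017) or 3 (0.019) of the untreated cells or replicate 2 (0.022) or 3 (0.016) of the treated cells, on length-scaled counts (log2 -0.04), and also on TPM itself (log2 -0.10, adjusted p by limma-trend = 0.2), although the TPM of the arms did not overlap. The change of the difference from 0 to 8 h, which stays within a table code, was -0.18 (95% CI -0.29 to -0.06, adjusted p by limma voom = 0.034) and did not pass, where 7.88% of all genes passed, but it passed in DESeq2 (adjusted p = 0.0026) and in limma voom with upper-quartile factors (adjusted p = 0.0079).

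NEDD4L-206, a coding transcript that begins at the end of the printed window, carried most of the difference in TPM. Untreated cells had 14.2 ± 0.623, 10.6 ± 1.19, 14.0 ± 0.432 and 19.9 ± 0.963 TPM (SD) of it at the 4 times, and cells of the TGFβ arm had 15.3 ± 0.425, 8.11 ± 0.458, 9.54 ± 0.793 and 10.7 ± 1.48 TPM. The replicates of the arms were separate at 48 h, with 18.8 to 20.5 TPM untreated and 9.64 to 12.4 TPM treated. At the level of genes 30.7% of those tested separated downward at 48 h, and the share of transcripts that did so was not counted. NEDD4L-214, from another start, was at 6.83 ± 0.307 TPM untreated and 7.87 ± 1.23 treated at 48 h, and NEDD4L-204 at 4.39 ± 0.19 and 4.43 ± 0.24. Transcripts were not tested.

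SCNN1A, the pore-forming alpha subunit without which the channel does not assemble well, rose in untreated cells and was lower with TGFβ at 24 and 48 h. In untreated cells it was at 2.94, 3.22 and 3.41 TPM at 0 h, 6.59, 5.07 and 5.76 at 8 h, 12.7, 11.9 and 14.0 at 24 h, and 19.4, 20.2 and 18.8 at 48 h. In the TGFβ arm it was at 2.37, 3.95 and 4.25 TPM at 0 h, 3.79, 4.03 and 4.08 at 8 h, 7.0, 5.65 and 7.29 at 24 h, and 8.12, 9.05 and 8.6 at 48 h. The arms overlapped at 0 h and were separate afterwards, as were those of 31.2%, 23.2% and 30.7% of all tested genes, downward, at 8, 24 and 48 h. Every later group of untreated cells lay above the one before it, and the share of genes with such a course was not counted. The step from 8 to 24 h lies between table codes, so time and code cannot be told apart there.

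Untreated SCNN1A rose by 0.76 on the log2 scale from 0 to 8 h (SE 0.094, adjusted p by limma voom = 1.8e-06, with 13.2% of genes passing upward) and by 0.62 from 24 to 48 h (SE 0.061, adjusted p by limma voom = 5.5e-08). The TGFβ arm also went from 3.52 to 8.59 TPM over 48 h, a change that spans table codes and was not tested. Relative to untreated cells the log2 difference was -0.36 (SE 0.085, adjusted p by limma voom = 0.0033) at 8 h, -1.06 (SE 0.073, adjusted p by limma voom = 1.3e-10) at 24 h and -1.29 (SE 0.068, adjusted p by limma voom = 1.2e-12) at 48 h, the last a level 0.409-fold that of untreated cells. The gap widened from 0 to 8 h by -0.46 (95% CI -0.74 to -0.18, adjusted p by limma voom = 0.026) and from 24 to 48 h by -0.23 (95% CI -0.44 to -0.02, adjusted p by limma voom = 0.14), and neither change passed the threshold of 0.01, which 9.11% of all genes passed for the later interval. The call at 8 h was lost without replicate 1 of the untreated cells (log2 -0.28, adjusted p by limma voom = 0.028) or without replicate 1 (0.014), 2 (0.015) or 3 (0.01) of the treated cells, whereas those at 24 and 48 h held in all settings.

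Of 23 SCNN1A transcripts, 4 reached 10% of the gene's TPM in some group, and the means of these were lower with TGFβ at 48 h. The coding transcript SCNN1A-201 was at 5.69 ± 0.505 TPM (SD) in untreated and 2.8 ± 0.272 in treated cells at 48 h. SCNN1A-203, also coding, was at 2.12 ± 0.536 and 0.318 ± 0.186 TPM. SCNN1A-209, for which no coding sequence is defined, averaged 6.46 and 3.45 TPM. SCNN1A-213, also without a defined coding sequence, was low and uneven, at 0.182 ± 0.315 TPM untreated and 0.0 TPM treated. These differences were not tested.

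The partners of SCNN1A in ENaC were close to absent. SCNN1B had 0 to 4 estimated counts and at most 0.123 TPM in any library, and SCNN1G had 0 to 5 counts and at most 0.0469 TPM, so that neither had 10 counts in 1 of the 24 libraries. No fold is given for them. The delta subunit SCNN1D, which can take the place of the alpha subunit, was at 3.72 TPM in untreated and 3.09 TPM in treated cells at 8 h, at 4.88 and 3.55 TPM at 24 h and at 6.25 and 6.57 TPM at 48 h. It did not pass the F-test over 8, 24 and 48 h (adjusted p by limma voom = 0.033), but it passed at 24 h, where it was lower with TGFβ (log2 -0.48).

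**Figure D3:**
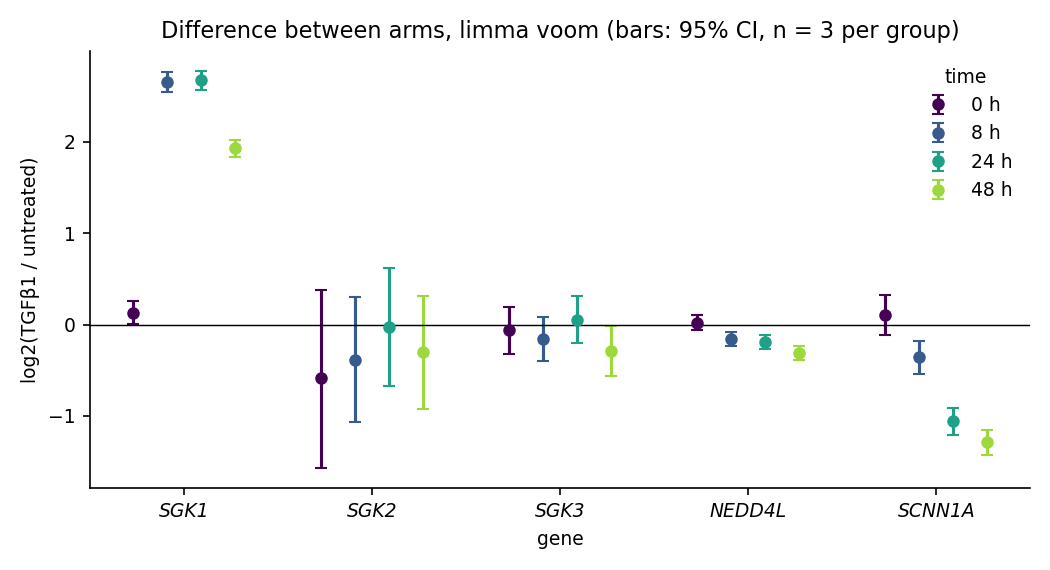
Log2 difference (TGFβ-treated over untreated cells) by time in h for the 5 genes with enough reads, with 95% confidence intervals from limma voom and 3 replicates per group. SGK1 lies at 2.65, 2.68 and 1.93 from 8 h on, SCNN1A goes from 0.1 at 0 h to -1.29 at 48 h, NEDD4L reaches -0.31 (0.04 with 4 reference genes as library size), and all intervals of SGK2 cross 0.

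The wider pathway was followed in 8 lists with 115 genes, of which 107 were tested. In the F-test over 8, 24 and 48 h, 42.5% of all tested genes passed at 0.01, 21.0% higher and 21.5% lower on average, and the median log2 difference of all genes was -0.019. The direction of the calls depended on the scaling, since 87.7% of them were higher with 4 reference genes as library size and 39.5% with upper-quartile factors, against 49.4% here. Counts per list leave out SGK1. Counts under another scaling or unit are given for chosen settings, and other settings also shifted some of them.

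Of the other 5 SGK and AKT kinases 0 passed in limma voom, with a median log2 difference of -0.01. An unadjusted p below 0.05 was found for 2 of them, and for 10280 of all 17453 tested genes. In edgeR and DESeq2 also 0 passed, and with the reference genes 3 were higher. AKT1, a kinase that shares many substrates with SGK1, had a mean log2 difference of 0.13 (adjusted p by limma voom = 0.081).

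Among 18 kinases and phosphatases upstream of SGK, 8 were higher, 2 lower and 8 not called, against 13 higher and 1 lower with the reference genes. PRR5L, which binds the mTORC2 complex, was at 7.24 TPM in untreated and 27.2 TPM in treated cells at 8 h and at 10.5 and 31.9 TPM at 48 h (mean log2 difference 1.86, adjusted p by limma voom = 1.2e-17). INPP4B, a phosphatase that removes a phosphate from the lipid products of phosphoinositide 3-kinase, was at 6.96 and 24.1 TPM at 8 h and 6.3 and 24.5 TPM at 48 h (1.98, adjusted p by limma voom = 1.7e-16). PDPK1, which phosphorylates the activation loop of SGK1, did not pass, with a log2 difference between 0.02 and 0.03 at 8, 24 and 48 h (adjusted p by limma voom = 0.85), nor did RICTOR, the defining subunit of mTORC2 (adjusted p by limma voom = 0.35).

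SGK1 is also a known target of corticosteroid receptors, and of 11 other tested genes of corticosteroid receptors, their enzymes and steroid targets 1 was higher, 8 were lower and 2 were not called, with a median log2 difference of -0.41. With the reference genes 3 were higher and 5 lower. ERRFI1, a feedback inhibitor of the EGF receptor, was at 79.9 TPM in untreated and 31.6 TPM in treated cells at 48 h (log2 -1.31, F-test adjusted p by limma voom = 3.7e-15), after 19.6 and 19.4 TPM at 0 h. TSC22D3, which encodes the leucine zipper protein GILZ, was the 1 gene that was higher, at 37.8 TPM untreated and 67.3 TPM treated at 48 h (log2 0.85, F-test adjusted p by limma voom = 1.9e-12).

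Of 13 substrates of SGK kinases, NEDD4L among them, 1 was higher, 4 were lower and 8 were not called, against 7 higher and 2 lower with the reference genes and 0 higher and 7 lower with upper-quartile factors. FOXO1, a transcription factor that SGK and AKT kinases keep out of the nucleus, was at 3.01 TPM in untreated and 1.6 TPM in treated cells at 48 h (log2 -0.89, F-test adjusted p by limma voom = 1.2e-10). NDRG2 was at 8.02 and 4.34 TPM (log2 -0.99, F-test adjusted p by limma voom = 1.9e-08), while NDRG1, whose phosphorylation is a common readout of SGK1 activity, did not pass (adjusted p by limma voom = 0.045).

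The 22 genes of NEDD4 family ligases, adaptors and deubiquitylases split into 8 higher, 3 lower and 11 not called, against 17 higher and 1 lower with the reference genes. On log2 TPM 4 were higher and 3 lower, on length-scaled counts 5 and 3, and with upper-quartile factors 6 and 5, so the balance of directions in this list depended on the setting. SMURF1, a relative of NEDD4L that ubiquitylates Smad proteins and TGFβ receptors, was at 16.5 TPM in untreated and 35.7 TPM in treated cells at 48 h (log2 1.1, F-test adjusted p by limma voom = 8.6e-16). SMURF2 was at 31.6 and 55.3 TPM (log2 0.83, F-test adjusted p by limma voom = 5.8e-12).

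In the family of SCNN1A, the ENaC and acid-sensing channel subunits, 5 of 9 genes had enough reads, and 1 was higher, 3 were lower and 1 was not called in all 13 settings run on this list. ASIC1, the most abundant of the acid-sensing subunits in each group, was at 13.5 TPM in untreated and 8.68 TPM in treated cells at 48 h (log2 -0.61, F-test adjusted p by limma voom = 2.3e-08). ASIC2 was at 0.731 and 0.324 TPM (log2 -1.55), while ASIC3 was the gene that was higher, at 1.81 and 4.97 TPM (log2 1.66, F-test adjusted p by limma voom = 9.1e-07).

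The proteases that can cleave ENaC and their inhibitors moved in both directions, with 5 of 10 tested genes higher, 2 lower and 3 not called, against 6 higher and 2 lower with the reference genes. FURIN, the convertase that cuts the alpha and gamma subunits in the Golgi, was at 61.1 TPM in untreated and 161 TPM in treated cells at 8 h and at 71.6 and 163 TPM at 48 h (mean log2 difference 1.32, adjusted p by limma voom = 4.3e-13). PLAU, the urokinase-type plasminogen activator, was at 97.5 and 366 TPM at 8 h and 93.5 and 489 TPM at 48 h (2.48, adjusted p by limma voom = 1.6e-22). SLPI, a secreted inhibitor of serine proteases, was at 4.97 TPM at 0 h and 73.7 TPM at 48 h in untreated cells, against 5.41 and 5.46 TPM in the TGFβ arm (log2 -3.71 at 48 h, F-test adjusted p by limma voom = 8.7e-16). TMPRSS2, a membrane-bound serine protease, was at 3.83 and 0.606 TPM at 48 h (log2 -2.72, F-test adjusted p by limma voom = 3.8e-13).

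Of 23 tested genes for other sodium, potassium and chloride transporters, 8 were higher, 11 lower and 4 not called, against 13 higher and 6 lower with the reference genes and 7 in each direction on log2 TPM. SLC5A3, the sodium-coupled transporter of myo-inositol, was at 68.5 TPM in untreated and 28.4 TPM in treated cells at 48 h (log2 -1.25, F-test adjusted p by limma voom = 5.9e-11), after 27.9 and 26.6 TPM at 0 h. CFTR, the chloride channel that works beside ENaC in airway epithelium, was low, at 1.49 and 0.463 TPM at 48 h (log2 -4.1 on counts, F-test adjusted p by limma voom = 1.6e-12), and already at 0 h at 0.918 and 0.299 TPM, when its log2 difference on counts was -0.25. The levels in TPM thus stood in much the same ratio at 0 and 48 h, and the growth of the difference was seen on counts but not on TPM. The transcripts of CFTR were not examined one by one, so the size of its difference is uncertain. FXYD3, a regulator of the sodium pump, was at 1.16 and 0.644 TPM (log2 -1.07, SE 0.367, F-test adjusted p by limma voom = 0.0019), a call lost with the reference genes (0.016).

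**Figure D4:**
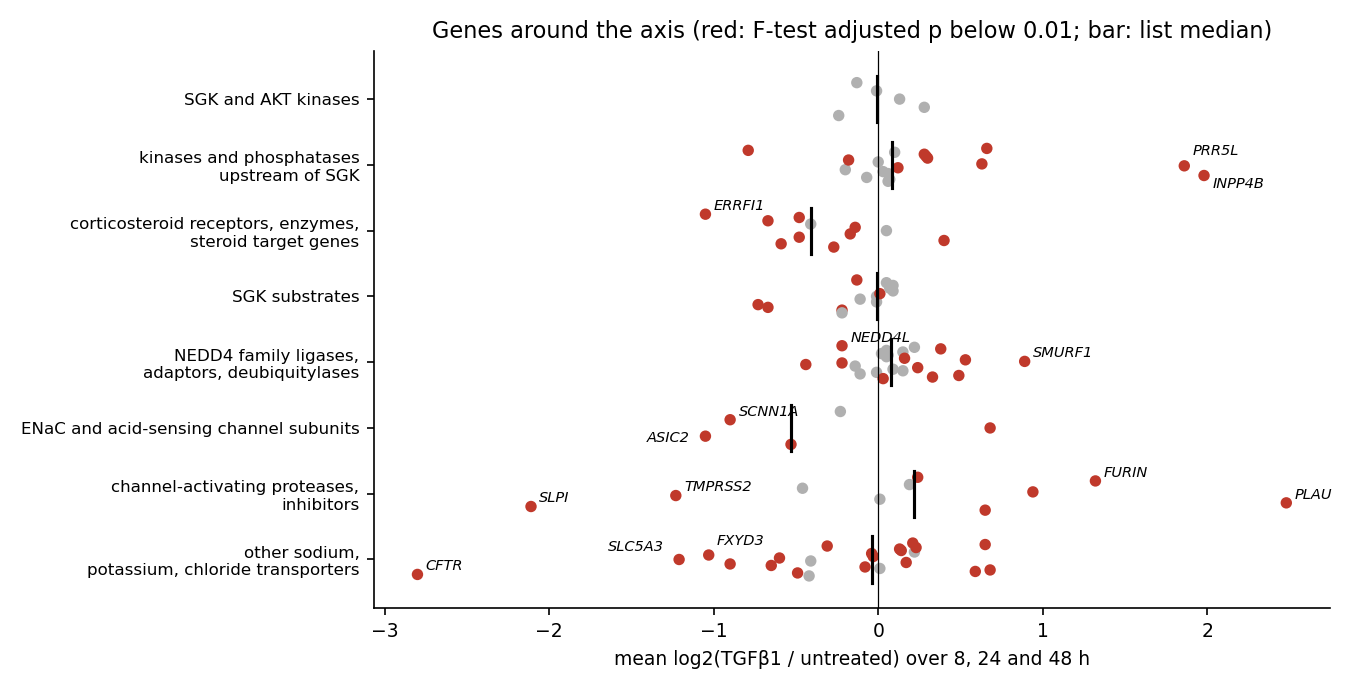
Mean log2 difference over 8, 24 and 48 h (horizontal axis) of the tested genes of the 8 lists without SGK1, 1 point per gene, red where the F-test of limma voom passed 0.01, with a bar at each list's median. Genes at 1 or more in either direction and 3 more are named, and the vertical spread within a list only separates points. PLAU lies highest at 2.48 and CFTR lowest at -2.8, a value on counts that the TPM of CFTR do not show at this size. NEDD4L, at -0.22, turned to 0.04 with 4 reference genes as library size.

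The genes whose levels followed SGK1 most closely were ranked by the Pearson correlation of log2(TPM + 1) over the 24 libraries among 14645 genes. Because the libraries share arm and time, these values describe a common course and carry no test. LTBP2, which encodes a protein of the extracellular matrix, was first with r = 0.986, followed by the kinase STK38L (0.985), the adaptor NEDD9 (0.984), SGPL1, which degrades sphingosine 1-phosphate (0.978), and LBH (0.977). LTBP2 was at 11.9 TPM in untreated and 45.1 TPM in treated cells at 8 h and at 20.2 and 76.3 TPM at 48 h, and NEDD9 at 1.46 and 10.9 TPM at 8 h and 3.29 and 23.1 TPM at 48 h. The most opposite courses were those of RAB7B (-0.971), SSTR1 (-0.96), AOAH (-0.956), ID2 (-0.956) and MID1 (-0.949). ID2, an inhibitor of basic helix-loop-helix factors, was at 21.8 TPM in untreated and 6.9 TPM in treated cells at 8 h. Among the members of the axis the correlation with SGK1 was -0.203 for SGK3, -0.544 for NEDD4L and 0.173 for SCNN1A.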

How the data were processed

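The authors sequenced total RNA of 24 libraries and quantified it with kallisto 0.43.0 against Ensembl transcripts of GRCh38. The deposited estimated counts are expected reads per transcript, not normalized. The authors also deposited TPM, counts per effective length scaled to 1 fixed total. The deposited effective lengths were used for length-scaled counts. Here transcripts were assigned to GENCODE release 44 genes, which held 155518 of 173259. Counts were summed per gene and rounded, and the 17453 genes that reached 10 counts in 3 or more libraries were tested with limma 3.58.1 (voom, TMM factors from edgeR 4.0.16, 1 mean per group, R 4.3.3), with Benjamini-Hochberg adjustment over all genes and a threshold of 0.01. Alternatives included edgeR, DESeq2 1.42.0, limma-trend on log2 TPM and other scalings and filters. The tests were tried on simulated data.

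The genes and lists were chosen with earlier results of these data known. Named were the 7 genes, SGK1 transcripts with at least 10% of its TPM, list genes past the F-test with a mean log2 difference of at least 1 (or the 2 with the lowest p), list genes related to a member by complex or family, and the 5 genes most and least correlated with SGK1. The transcripts of NEDD4L and SCNN1A, and PDPK1, RICTOR and NDRG1, were named for their role after the values were seen. Results of some single genes that the rule names are not reported here. RefSeq windows were searched on both strands. The labels do not say whether replicates were separate cultures, the study's text calls them biological, and p-values measure the spread between these samples. All 24 replicate pairs differed beyond sampling noise (chi-square per gene 3.17 to 60.5).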

Additional observations from a re-analysis of the deposited data

Results flagged for a closer look

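The difference between the arms changed from 24 to 48 h in 5 of the named genes, a test of the change itself within the table codes. Of all tested genes 9.11% passed it in limma voom. The named list genes were chosen by large differences or low p in these same libraries, so their number cannot be set against that share. It grew by 0.47 on the log2 scale for TSC22D3 (SE 0.062, adjusted p by limma voom = 1.6e-05) and by 0.31 for SMURF2 (SE 0.072, adjusted p by limma voom = 0.0052). It became more negative by -1.91 for TMPRSS2 (SE 0.174, adjusted p by limma voom = 1.3e-07) and by -1.62 for SLPI (SE 0.185, adjusted p by limma voom = 2.7e-06), and both genes rose over this interval in untreated cells, TMPRSS2 from 1.34 to 3.83 TPM and SLPI from 22.1 to 73.7 TPM. For PLAU, which was higher with TGFβ, the change was -0.65 (SE 0.074, adjusted p by limma voom = 2.5e-06), while untreated PLAU went from 44.3 to 93.5 TPM and treated PLAU from 360 to 489 TPM.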

How the results depend on the processing

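SCNN1A kept its direction between the arms at 8, 24 and 48 h in all 37 settings, and at 24 and 48 h also its call. Calls lost in SCNN1A at 8 h were those on TPM, on length-scaled counts and with 4 reference genes as library size (adjusted p in limma from 0.014 to 0.024), and without replicate 1 of the untreated cells or any 1 of the 3 treated replicates (0.01 to 0.028). NEDD4L reversed with the reference genes, to 0.16 at 24 h, 0.04 at 48 h and 0.04 on average in the F-test. It also lost its call at 24 h with only the libraries of that contrast (adjusted p by limma voom = 0.035) and its rise in untreated cells from 24 to 48 h on length-scaled counts (log2 0.09). The cause was not tested. By estimated counts 2 transcripts of SGK1 also passed 10%, but SGK1-205 took the place of SGK1-228.

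Counts of genes past the threshold moved by over 1.5 times in few settings. With the reference genes 9282 passed at 24 h, 9457 at 48 h, 10049 in untreated cells from 24 to 48 h and 11187 in the F-test, of which 87.7% were higher against 49.4% in the main analysis. Upper-quartile factors gave 39.5% higher. With only the libraries of the contrast 5304 passed at 8 h (2859 in the main analysis) and 2769 at 24 h (5112). The change from 24 to 48 h gave 1000 on log2(TPM + 0.1) and 1049 on length-scaled counts, against 1590. At 0 h DESeq2 gave 8. Leaving out each library in turn gave 0 to 1 genes at 0 h, 1 without replicate 2 of the TGFβ arm at 0 h, and the F-test then gave 6756 to 8127.

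The labels give no shared culture or day for a replicate number, and the correlation of same-numbered libraries was above 0.1 in 4 of 12 pairs (-0.0531 to 0.271), so the libraries were not treated as paired. A replicate block gave 8092 genes in the F-test, 2 higher corticosteroid genes in place of 1 and 5 lower SGK substrates in place of 4, and changed no call of NEDD4L or SCNN1A (-1.29 for SCNN1A at 48 h). Depth limits SGK2, SCNN1B and SCNN1G.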
